A study of Mus musculus with 31 samples.

Results

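The nuclear pore, importin and exportin genes were described in single mouse 2-cell embryos. They were taken as every row of the count table whose symbol is Nup with a number or Nupl, starts with Ipo, Xpo or Tnpo with a number or with Kpna, or is Kpnb1, Tpr, Ndc1, Aaas, Seh1l, Sec13, Pom121, Ranbp2 or Nrm. This gave 53 of the 20544 genes of the table, with Nup210l and Nup62cl counted in. Without these 2, whose symbols go on after the number, there were 51. By role they comprised 6 importin alpha genes, 11 import receptors of the importin beta family, 5 exportins, 28 pore components in 6 substructures, and 3 others, Nrm, Nup210l and Nup62cl.

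RNA was sequenced from 31 single 2-cell embryos by Smart-seq3, 16 made with control sperm and 15 with sperm that underwent sperm energy restriction and recovery (SER). The sperm of both groups came from the caudae of wild-type C57BL/6J males aged 12 to 14 weeks. The study's methods divide the paired caudae between the control and SER media, but no label gives this pairing, so the fits leave it out. Control sperm were held in IVF-TYH medium with glucose and pyruvate, and SER sperm in the same medium without both until they stopped moving, after which both were given the complete medium. All eggs came from superovulated CD1 females aged 8 to 10 weeks, all embryos were cultured in KSOM and collected at 32 h post insemination (HPI), and the treatment was thus given to the sperm alone, before fertilization. The study describes independent batches that held embryos of both groups, but no label ties an embryo to a male, a fertilization or a batch. The p-values below therefore measure the spread between these embryos, with any difference between batches left in it. Each library holds a whole embryo, so fewer expressing cells and less RNA per cell cannot be told apart.

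Proteins and RNA cross the nuclear envelope through the pore, a ring-shaped assembly of nucleoporins. Importin alpha adaptors bind a nuclear localization signal and dock on importin beta, other importins bind cargo directly, and exportins carry cargo out, with the GTPase Ran setting the direction. In the mouse, the egg supplies these proteins and their mRNAs to the zygote, and the embryo's own transcription starts broadly at the 2-cell stage.

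Total counts on genes were 532945 to 2085222 in control- and 642321 to 3088396 in SER-generated embryos, with medians of 955806.5 and 1375557. The means of the log2 totals, 19.9 and 20.5, differed (2-sided permutation test, p = 0.0196). Markers of the 2-cell embryo were found in every library, with a summed level of 690 to 5330 CPM (counts scaled to the library total on genes). They include the oocyte transcripts Zp3, Gdf9, Oosp1 and Nlrp5, so this sum can be reached with few zygotic transcripts. Of 12 cumulus cell markers 11 had a median of 0, as had 7 of 8 sperm markers, and their summed levels reached 149 and 30.9 CPM at most. A score of zygotic activation was log2 of the summed CPM of Zscan4, Tdpoz, Usp17l and Tcstv family genes and Zfp352. For the scores and for log2 CPM, library sizes were scaled by TMM. On the zygotic score 2 embryos stood apart, control replicate 4 at 5.78 and SER replicate 15 at 7.24. The other 29 embryos lay between 8.92 and 11.5, and the same 2 embryos had the highest score for oocyte transcripts, 13.8 and 13.7. Over all 31 embryos the scores had a Pearson r of -0.24 (permutation p = 0.193) and a Spearman rho of 0.06 (permutation p = 0.757). Over the other 29 embryos r was 0.38 (permutation p = 0.0406) and rho 0.29 (permutation p = 0.124). Results that rest on these 2 embryos are given with and without them.

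The pore and carrier genes took up 0.836% ± 0.110 (SD, n = 16) of the counts in control-generated embryos and 0.890% ± 0.123 (SD, n = 15) in SER-generated embryos, which is within the spread (p = 0.209 by a 2-sided permutation test of 100000 resamples). At least 1 count was found in every embryo for 42 of the 53 genes. Levels of different genes were compared as CPM per kb of exon, with exon length from GENCODE vM21. On this scale the range was wide, from 337 ± 105 (SD, n = 16) for Nup62 to 0.302 ± 0.412 (SD, n = 16) for Nup210 in control-generated embryos. Nup62, an FG nucleoporin of the central channel, was the highest of all 53 in 30 of 31 embryos. Kpna2 followed at 126 ± 61.7, then Tpr at 81.5 ± 38.3, Nup214 at 74.0 ± 29.5, Kpna3 at 60.3 ± 13.1 and Pom121 at 55.7 ± 22.6 CPM per kb (SD, n = 16 each). The spread of neighbours from Tpr to Pom121 overlapped, and Kpna2 was the second highest in 17 of 31 embryos. The strand setting of the counting is not given in the sources used here, and some exons are shared with other genes, which take in 3.40% of Nup62 (Il4i1, same strand), 11.9% of Pom121 (Nsun5, opposite strand) and 55.3% of the exon bases of Ipo4 (Gm49378, same strand).

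**Figure D1:**
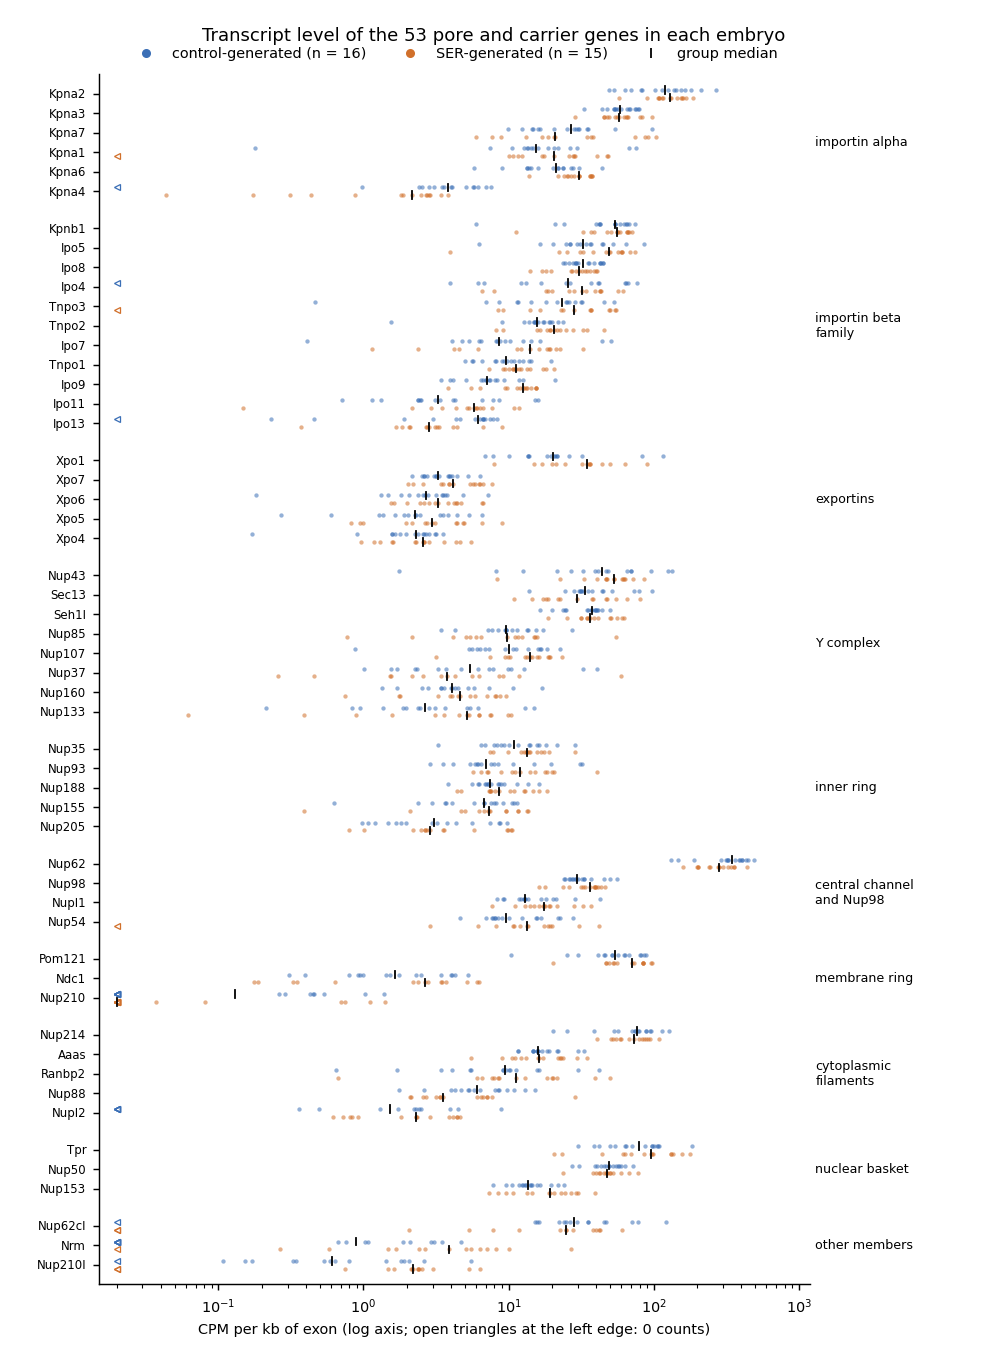
Levels of the 53 genes in each embryo, in CPM per kb of exon on a log axis, with 1 point per embryo, control-generated above SER-generated, and a black tick at the group median. Open triangles at the left edge are embryos with 0 counts, and Nup62 lies highest while Nup210 lies lowest.

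Between SER- and control-generated embryos no pore or carrier gene passed the threshold. Of the 53 genes, 50 had enough counts to be tested, and edgeR called 0 of them at an adjusted p under 0.1, as it called 0 of all 8571 genes (percent called over all genes: 0). The study itself reported differentially expressed genes at this threshold, by DESeq2 after a batch correction with ComBat-seq that could not be repeated here. Unadjusted, 3 of the 50 and 491 of the 8571 genes were under 0.05. Estimates were higher in SER-generated embryos for 33 and lower for 17 of the 50, with a median log2 fold change of 0.14, against 4515 higher, 4056 lower and a median of 0.02 over all tested genes. The 3 genes with the smallest p were importin alpha genes Kpna6 and Kpna4 and the import receptor Tnpo2. All 5 exportins and all 5 inner ring genes had higher estimates, with medians of 0.28 and 0.23, and none passed the test.

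**Figure D2:**
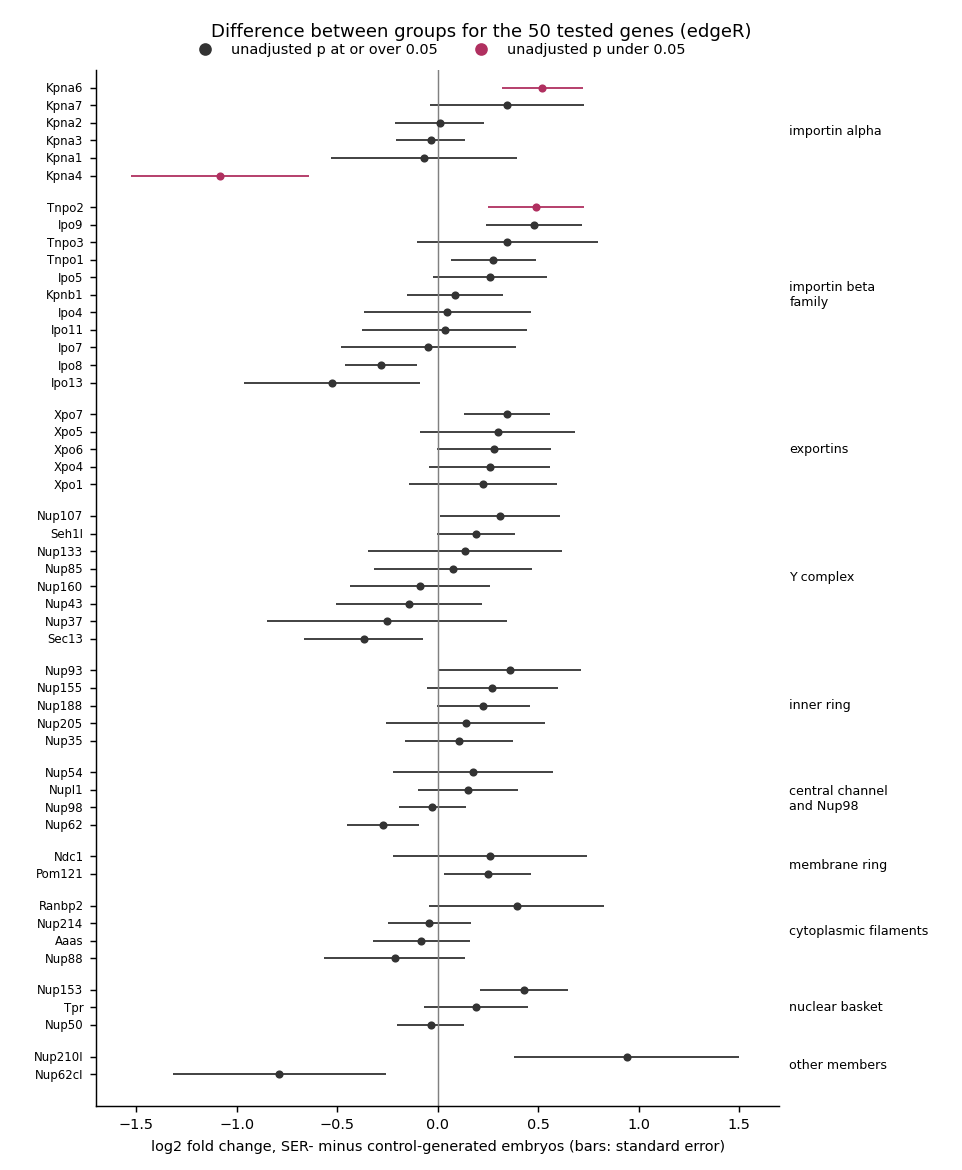
Log2 fold change between SER- and control-generated embryos with its standard error for the 50 tested genes, grouped by role. No gene passed an adjusted p of 0.1, and Kpna6, Kpna4 and Tnpo2 are the 3 with an unadjusted p under 0.05.

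Limma voom with quality weights, the alternative that differed most, called 9 of the 50 genes (18%) where it called 9.89% of all genes. These were Kpna6, Xpo1, Nup35, Ipo5, Ranbp2, Nup93 and Ipo7 with higher and Kpna4 and Nup62 with lower values in SER-generated embryos. With 5 surrogate variables edgeR called Kpna4 alone, where it called 0.712% of all genes. DESeq2 called none of the 50 where it called 0.572% of all genes, and 5 of the 50 were under an unadjusted 0.05, as were 7.64% of all genes. With estimated clusters as a term edgeR called none of the 50 and 0.478% of all genes. The fit with library size as a term and all 31 fits with 1 embryo left out also called no gene of the 50. These calls therefore rest on the choice of fit.

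Importin alpha adaptors held the 2 genes with the smallest p, and because these paralogs share sequence, how reads were split among them is uncertain. Kpna6 (chr4:129643980-129672767, minus strand, GRCm38) encodes an importin alpha supplied by the egg and needed by the early mouse embryo. Its level was 39.0 to 299 CPM (median 143) in control- and 93.9 to 254 CPM (median 204) in SER-generated embryos. The ranges overlapped, and 14 of 15 embryos from SER sperm were above the median of controls. The log2 fold change of 0.52 (SE 0.20) had an adjusted p of 0.731 by edgeR, and over 44 alternatives the estimate was 0.44 to 0.70 with adjusted p from 0.0168 to 1.00.

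Kpna4 (chr3:69067149-69127113, minus strand) was lower in SER-generated embryos by its estimate. Its level was 0 to 67.5 CPM (median 34.1) in control- and 0.389 to 34.3 CPM (median 19.5) in SER-generated embryos, and 14 of 15 embryos from SER sperm were below the median of controls. The control embryo at 0 was replicate 4, with the lowest zygotic score, and at its depth a count of 0 allows up to 4.53 CPM (3 counts, counting error only). The estimate was -1.08 (SE 0.44) with an adjusted p of 0.753 by edgeR, and over 44 alternatives it lay between -1.38 and -0.54 with adjusted p from 0.0497 to 1.00. Groups overlapped for this gene too.

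The other 4 importin alpha genes had estimates smaller than their standard errors. Kpna2, the most abundant, was at 141 to 779 CPM (median 344) in control- and 166 to 535 CPM (median 371) in SER-generated embryos, a log2 fold change of 0.01 (SE 0.22). Kpna3 was the most even, with medians of 250 and 247 CPM and a fold change of -0.03 (SE 0.17) on the log2 scale. Kpna1 and Kpna7 were spread widely within both groups, from 0 to 646 CPM and from 18.8 to 325 CPM over all embryos, and their log2 fold changes were -0.07 (SE 0.46) and 0.35 (SE 0.38). Intervals of 2 standard errors ran from -0.997 to 0.86 for Kpna1 and from -0.42 to 1.11 for Kpna7. Summed, the 6 genes took 0.108% of counts in control- and 0.116% in SER-generated embryos (p = 0.265 by the same test).

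The makeup of the importin alpha transcripts per kb was led by Kpna2, with 45.5% ± 11.3 of the total in control-generated embryos (SD, n = 16), followed by Kpna3 with 24.5% ± 7.78. Kpna7, the importin alpha known from oocytes and early embryos, held 11.4% ± 7.71, Kpna1 8.88% ± 7.37, Kpna6 7.99% ± 3.29 and Kpna4 1.66% ± 1.10. In SER-generated embryos the shares were 45.6% ± 11.2, 21.4% ± 5.80, 13.0% ± 10.3, 8.58% ± 5.72, 10.7% ± 2.84 and 0.706% ± 0.468 in the same order (SD, n = 15). Kpna2 was the largest share in 27 of 31 embryos. Kpna7 was the largest in 1, control replicate 4, where it held 35.9% and Kpna1 0.0657%, and in SER replicate 15 Kpna7 held 31.4% while Kpna1 had 0 counts. In these 2 embryos the oocyte importin and Kpna1 thus took opposite ends of their ranges.

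**Figure D3:**
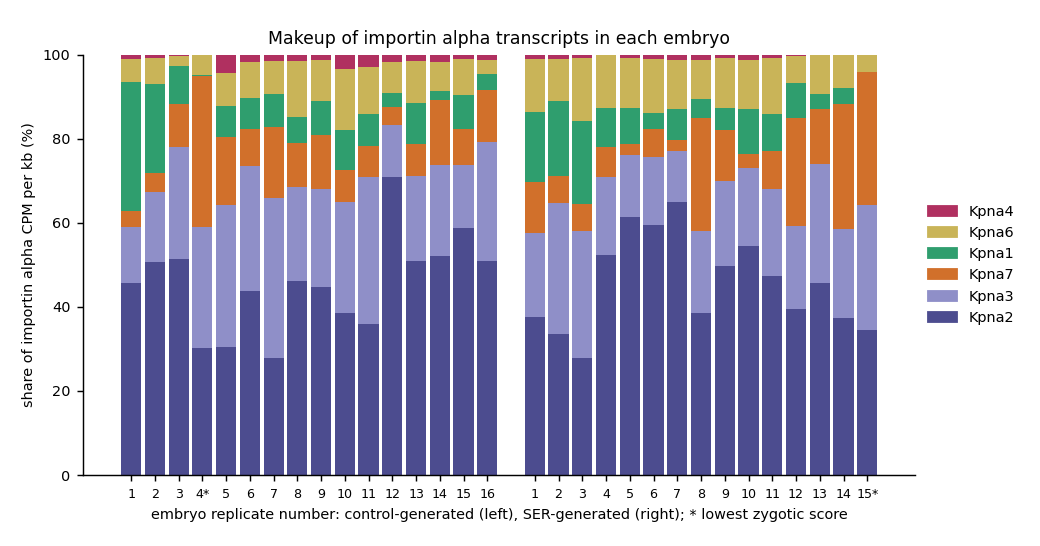
Share of each importin alpha gene in the summed CPM per kb of the 6 genes, 1 bar per embryo, control-generated on the left and SER-generated on the right. Asterisks mark the 2 embryos with the lowest zygotic score, in which Kpna7 holds 35.9% and 31.4% and Kpna1 almost no share.

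Importin alpha genes differ upstream of their starts as well, shown here for Kpna2, Kpna4 and Kpna7 only. The 250 bases before the RefSeq start (GRCm38.p6, taken 5′ to 3′ on the strand of the gene) are printed for the most abundant gene, the gene with the largest estimate and the oocyte importin, to show the contrast in CpG content. Capitals mark letters of CCAAT (or ATTGG on the other strand).
Kpna2 chr11:106999526-106999775 (- strand): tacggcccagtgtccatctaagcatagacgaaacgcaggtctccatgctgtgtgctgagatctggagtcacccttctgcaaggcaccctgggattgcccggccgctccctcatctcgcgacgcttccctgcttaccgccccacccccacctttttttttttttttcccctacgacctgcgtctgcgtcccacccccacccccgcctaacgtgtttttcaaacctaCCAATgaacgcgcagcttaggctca
Kpna4 chr3:69127093-69127342 (- strand): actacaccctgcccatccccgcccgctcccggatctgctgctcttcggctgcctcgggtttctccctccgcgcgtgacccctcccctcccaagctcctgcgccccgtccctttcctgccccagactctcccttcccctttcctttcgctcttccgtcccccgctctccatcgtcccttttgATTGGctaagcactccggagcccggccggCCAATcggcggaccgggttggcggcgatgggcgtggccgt
Kpna7 chr5:145009637-145009886 (- strand): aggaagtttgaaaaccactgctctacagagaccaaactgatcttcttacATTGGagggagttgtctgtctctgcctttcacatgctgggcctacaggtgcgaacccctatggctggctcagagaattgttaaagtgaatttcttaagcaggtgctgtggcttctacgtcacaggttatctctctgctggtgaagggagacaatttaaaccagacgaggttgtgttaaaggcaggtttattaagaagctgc
Over these bases Kpna2 holds 16, Kpna4 24 and Kpna7 3 CpG dinucleotides, against a median of 21 in the 50 windows of the 43 pore and carrier genes with an entry and a median of 6 in all 32851 windows of the RefSeq table. Kpna7 thus lay below, and most of the other genes above, the median of all promoters. For Kpna7 this holds for the RefSeq start used, as the GENCODE gene on the minus strand extends to position 145084030, upstream of this window. CCAAT occurs in 46.0% of the windows of these genes and in 33.8% of all windows, a description that says nothing of binding.

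Among the import receptors of the importin beta family, 8 of 11 estimates were higher in SER-generated embryos and 3 lower. Kpnb1, the importin beta that carries importin alpha, was at 39.2 to 488 CPM (median 357) in control- and 74.4 to 470 CPM (median 369) in SER-generated embryos, a log2 fold change of 0.09 (SE 0.24). Tnpo2, a transportin for RNA-binding proteins, was at 9.75 to 148 CPM (median 99.1) against 51.7 to 285 CPM (median 129), with 12 of 15 embryos from SER sperm above the median of controls. Its log2 fold change was 0.49 (SE 0.24) with an adjusted p of 0.869 by edgeR. Ipo9, a carrier of histones, was at 28.2 to 172 CPM (median 58.9) against 31.4 to 128 CPM (median 103), a log2 fold change of 0.48 (SE 0.24) with the same adjusted p. Groups overlapped for each of them. Per kb of exon, Kpnb1 led the family at 48.3 ± 18.8 (SD, n = 16) and Ipo13 was lowest at 4.84 CPM per kb in control-generated embryos. For Tnpo2, 666 exon bases or 10.6% are shared with A230103J11Rik on the opposite strand.

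Exportins were low apart from Xpo1. Xpo1 (CRM1), the receptor of leucine-rich export signals, was at 49.1 to 840 CPM (median 144) in control- and 56.9 to 651 CPM (median 248) in SER-generated embryos, and 11 of 15 embryos from SER sperm were above the median of controls. Its log2 fold change was 0.22 (SE 0.37) with an adjusted p of 0.974 by edgeR, and leaving out 1 embryo at a time moved it between 0.06 and 0.63. Per kb of exon Xpo1 stood at 28.0 ± 29.6 (SD, n = 16), and the other 4, Xpo4, Xpo5, Xpo6 and Xpo7, at 2.18 to 3.57 CPM per kb in control-generated embryos. Xpo4, which exports eIF5A, was at 1.84 to 38.2 CPM (median 24.9) against 10.3 to 59.1 CPM (median 27.8), a log2 fold change of 0.26 (SE 0.30).

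No pore component passed the test between the groups. In the central channel, Nup62 was at 376 to 1398 CPM (median 985) in control- and 456 to 1257 CPM (median 801) in SER-generated embryos, and 12 of 15 embryos from SER sperm were below the median of controls. Its log2 fold change was -0.27 (SE 0.18) with an adjusted p of 0.928 by edgeR and from 0.0430 to 1.00 over 44 alternatives. In the nuclear basket, Tpr had medians of 828 and 1013 CPM and a log2 fold change of 0.19 (SE 0.26), and Nup153 was at 55.3 to 169 CPM (median 95.4) against 51.5 to 277 CPM (median 135), which edgeR put at a log2 fold change of 0.43 (SE 0.22) with an adjusted p of 0.869. Nup50, the third basket gene, had medians of 242 and 232 CPM.

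On the cytoplasmic side, Nup214 was at 196 to 1238 CPM (median 740) in control- and 395 to 1057 CPM (median 709) in SER-generated embryos, a log2 fold change of -0.04 (SE 0.21). Ranbp2, the large Ran-binding filament protein, ranged from 7.54 to 492 CPM (median 110) and from 7.79 to 586 CPM (median 133), and its log2 fold change of 0.39 was within its SE of 0.44. Pom121, a membrane anchor of the pore, had medians of 302 and 399 CPM and a log2 fold change of 0.25 (SE 0.22). In the Y complex, which forms the outer rings, 4 estimates were higher and 4 lower, among them Nup85 at 0.08 (SE 0.39), with 11.5 to 92.0 CPM (median 32.6) against 2.61 to 188 CPM (median 32.9). Ranges of the groups overlapped for all of these genes.

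Some genes of the set had few counts. Nup210l, known from testis, was at 0 to 31.4 CPM (median 3.48) in control- and 0 to 36.5 CPM (median 12.6) in SER-generated embryos, with 13 of 15 embryos from SER sperm above the median of controls. By edgeR its log2 fold change was 0.94 (SE 0.56) with an adjusted p of 0.901. Nrm, Nup210 and Nupl2 had too few counts to be tested. Nrm, nurim of the inner nuclear membrane, named after its values were seen, was at 0 counts in 6 of 16 controls and in 1 of 15 embryos from SER sperm, with medians of 1.31 and 5.73 CPM. In the edgeR fit of all genes with a count it had a log2 fold change of 1.89 (SE 0.73) with an adjusted p of 0.232, where 2.83% of all 17803 genes were called, and 13.6% of its exon bases are shared with an antisense gene. SER libraries were deeper, and the part of depth in detecting such low genes was not tested.

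Other genes that work with the pore and its carriers were counted in the same fit. Of 20 other genes of the Ran cycle, further carriers and mRNA export in the table, 19 were tested and 0 called by edgeR, with 11 higher and 8 lower estimates. The gene of this list with an unadjusted p under 0.05 was Ddx19b, an RNA helicase at the pore, with means of 32.7 CPM with control sperm and 50.7 CPM with SER sperm and an edgeR log2 fold change of 0.58 (SE 0.26) with an adjusted p of 0.809. Of 13 genes of the lamina and the inner nuclear membrane, 10 were tested and 0 called, with 6 higher and 4 lower estimates.

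Embryos also varied within the groups, and by different amounts from gene to gene. Over the 31 embryos, the SD of log2 CPM placed 14 of the 50 genes in the lowest 10% of all tested genes, and 3 in the highest 10%. Genes were not matched for level in this ranking, and the part of level in it was not tested. The most even were Nup50 (SD 0.36), Nup98 (0.37) and Kpna3 (0.38), and the most uneven Nup62cl (1.94), Tnpo3 (1.85) and Kpna1 (1.79). These 6 were chosen after their values were seen. Nup98, a mobile FG nucleoporin, thus kept to 205 to 708 CPM, while Tnpo3, the carrier of SR splicing factors, ran from 0 to 719 CPM.

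The spread was set against the zygotic activation score to ask which genes vary with the embryo's own transcription. The difference in score between the groups was within the spread between embryos, with means of 9.68 ± 1.27 (SD, n = 16) in control- and 9.93 ± 1.02 (SD, n = 15) in SER-generated embryos (2-sided permutation test, p = 0.570). Over 31 embryos, 13 of 50 genes (26%) correlated positively and 6 (12%) negatively at an adjusted p under 0.1, against 23.7% and 16.8% of all genes tested. These shares lay near those of all genes. Without the 2 embryos of lowest score, 11 (22%) correlated positively and 7 (14%) negatively, against 7.92% and 11.2% of all genes. Genes, score and library size share the same libraries, and the score rose with log2 total count (Pearson r = 0.29, permutation p = 0.105; Spearman rho = 0.46, permutation p = 0.0107). Over the 29 embryos that relation was closer, at r = 0.48 (permutation p = 0.00860) and rho = 0.56 (permutation p = 0.00216).

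Positive in both sets of embryos were 7 genes, Kpna1, Ipo5, Ipo7, Ipo11, Xpo1, Ranbp2 and Nup205, and negative in both were 3, Nup214, Xpo4 and Xpo6, of the 50 tested. Of all 8556 genes, 5.89% were positive and 6.31% negative in both. Replicates 1 to 3 of both groups had high zygotic scores, 10.6 to 11.5, as had SER replicates 5, 13 and 14. Nup205 was at 69.2 to 98.1 CPM in replicates 1 to 3, against group medians of 28.7 and 26.9 CPM. SER replicates 5, 13 and 14 had 33.2, 92.2 and 25.5 CPM. Nup214 was lowest of the controls in replicates 1 to 3, at 196 to 377 CPM, but at 509 to 914 CPM in SER ones. Xpo1 was at 232 to 840 CPM in control replicates 1 to 3 (other controls up to 188) and 358 to 651 CPM in SER ones (others up to 316). Kpna1 was at 186 to 646 CPM in these controls (others up to 253) and 347 to 410 CPM in SER ones (others up to 242). In SER replicates 5, 13 and 14, Xpo1 was at 316, 123 and 144 CPM and Kpna1 at 220, 85.6 and 99.1 CPM. Whether replicates 1 to 3 share a batch is not known, and the relations without replicates 1 to 3 were not tested. Of the 11 tested import receptors of the importin beta family, 5 were positive and none negative over 31 embryos, against 23.7% and 16.8% of all genes. Ipo5, Ipo7 and Ipo11 were positive in both sets of embryos, Kpnb1 and Tnpo3 over 31 embryos only. Exportins split, Xpo1 being positive and Xpo4 and Xpo6 negative. Of the 4 tested genes of the cytoplasmic filaments, Ranbp2 was positive and Nup214 and Nup88 negative.

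Kpna1 had the highest correlation. Its r was 0.83 over 31 embryos (adjusted permutation p = 0.000754) with a Spearman rho of 0.62 (adjusted p = 0.00927), and without the 2 lowest embryos r was 0.58 (adjusted permutation p = 0.0208). Within the groups r was 0.91 in control- and 0.77 in SER-generated embryos, and 0.73 without control replicate 4 and 0.36 without SER replicate 15, so in the SER group 1 library carried much of it. In CPM, the 2 lowest embryos were at 1.51 and 0, and the other 29 lay between 63.7 and 646 (median 158). The r over 31 embryos therefore rests in part on the step between these 2 and the rest.

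Ipo5, an importin of ribosomal proteins and histones, had an r of 0.76 (adjusted permutation p = 0.000509), a rho of 0.59, and 0.49 without the 2 embryos (adjusted permutation p = 0.0539). Ranbp2 had an r of 0.75 (adjusted permutation p = 0.000509), a rho of 0.61, and 0.53 without them (adjusted permutation p = 0.0328). The 2 embryos were at 37.7 and 23.8 CPM of Ipo5 and at 7.54 and 7.79 CPM of Ranbp2, below the other 29 embryos, which began at 98.7 and 20.1 CPM. Xpo1 changed little without them, with an r of 0.64 over 31 (adjusted permutation p = 0.00160), a rho of 0.65, and 0.62 over 29 embryos (adjusted permutation p = 0.00979).

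Kpnb1 rested on the 2 embryos. Its r of 0.71 over 31 embryos (adjusted permutation p = 0.00330) became 0.21 without them (adjusted permutation p = 0.485), and its rho was 0.38 (adjusted p = 0.126). The r of Tnpo3 was 0.73 and 0.32, and that of Nup155 0.65 and 0.18, with and without them. None of the 3 genes passed an adjusted p of 0.1 among the 29 embryos, by Pearson or Spearman.

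Kpna4 changed direction. Its r was 0.31 over 31 embryos (adjusted permutation p = 0.168) and -0.45 without the 2 embryos (adjusted permutation p = 0.0831), and its rho over 31 was -0.28 (adjusted p = 0.298). The 2 embryos had almost no Kpna4, at 0 and 0.389 CPM, while the other 29 lay between 1.55 and 67.5 CPM (median 25.2). Among those 29 embryos Kpna4 was lower where the score was higher, which is the opposite of Kpna1.

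On the negative side, Nup214 had an r of -0.55 (adjusted permutation p = 0.0124), a rho of -0.47 (adjusted p = 0.0530), and -0.46 without the 2 embryos (adjusted permutation p = 0.0795). It was -0.75 in control- and -0.15 in SER-generated embryos, and -0.82 and 0.10 without the lowest embryo of each, and the difference between the groups was not tested. Xpo4 had an r of -0.52 (adjusted permutation p = 0.0357), a rho of -0.59 (adjusted p = 0.0134), and -0.62 without the 2 embryos (adjusted permutation p = 0.00651). Nup85 at -0.46 (adjusted permutation p = 0.0444) and a rho of -0.19 was at -0.09 without them. For Nup85 no relation was found among the 29 embryos at an adjusted p under 0.1.

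Kpna7, whose mRNA is known as an egg product, had an r of -0.40 with the zygotic score (adjusted permutation p = 0.0694), a rho of -0.17, and 0.01 without the 2 embryos. These were at 305 and 325 CPM, above the other 29, which lay between 18.8 and 289 CPM (median 66.0). Against the score of oocyte transcripts, log2 of the summed CPM of genes such as Zp3, Gdf9 and Nlrp5, its r was 0.67 (adjusted permutation p = 0.000454) with a rho of 0.59, and it was 0.53 without the 2 embryos (adjusted permutation p = 0.0167).

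Against this oocyte score, 10 of the 50 genes (20%) correlated positively and 17 (34%) negatively over 31 embryos, where 20.1% and 31.4% of all genes did. By Spearman 9 and 14 did, against 22.3% and 26.7% of all genes, and without the 2 embryos 9 and 12 by Pearson, against 15.3% and 19.9%. In all 3 of these relations 8 were positive and 9 negative, against 13% and 16.9% of all genes.

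**Figure D4:**
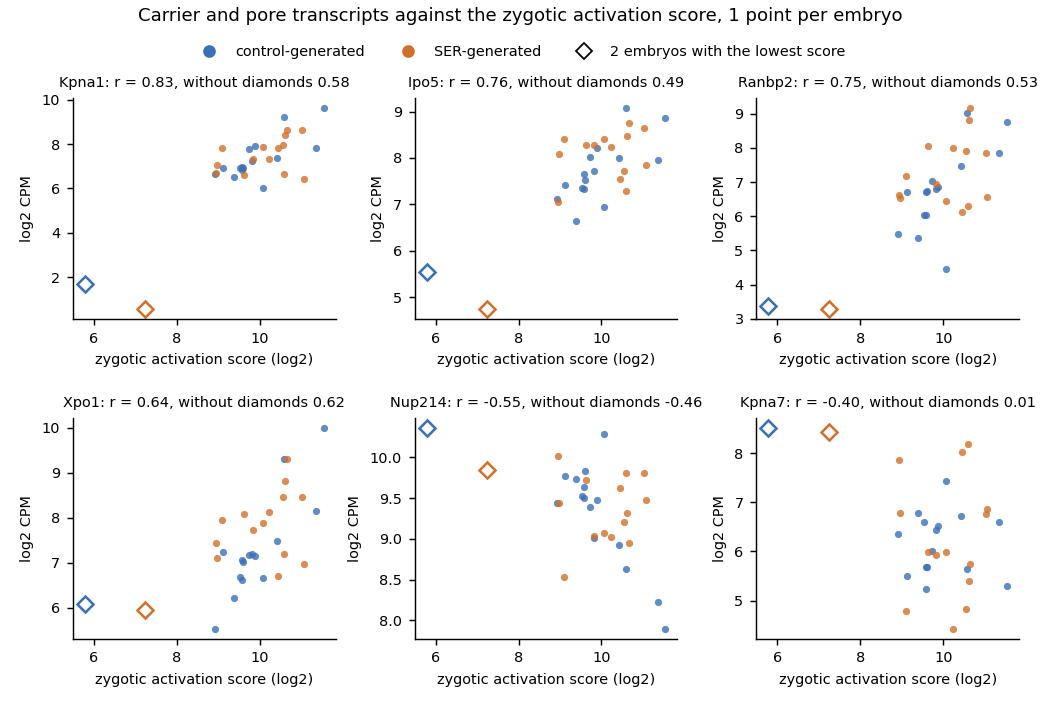
Log2 CPM of 6 genes against the zygotic activation score, 1 point per embryo, with diamonds for the 2 embryos of lowest score. Kpna1, Ipo5 and Ranbp2 are lowest in these 2 embryos, Xpo1 rises within the other 29, and Kpna7 shows no slope without the diamonds. Nup214 goes down with the score mainly in control-generated embryos.

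**Figure D5:**
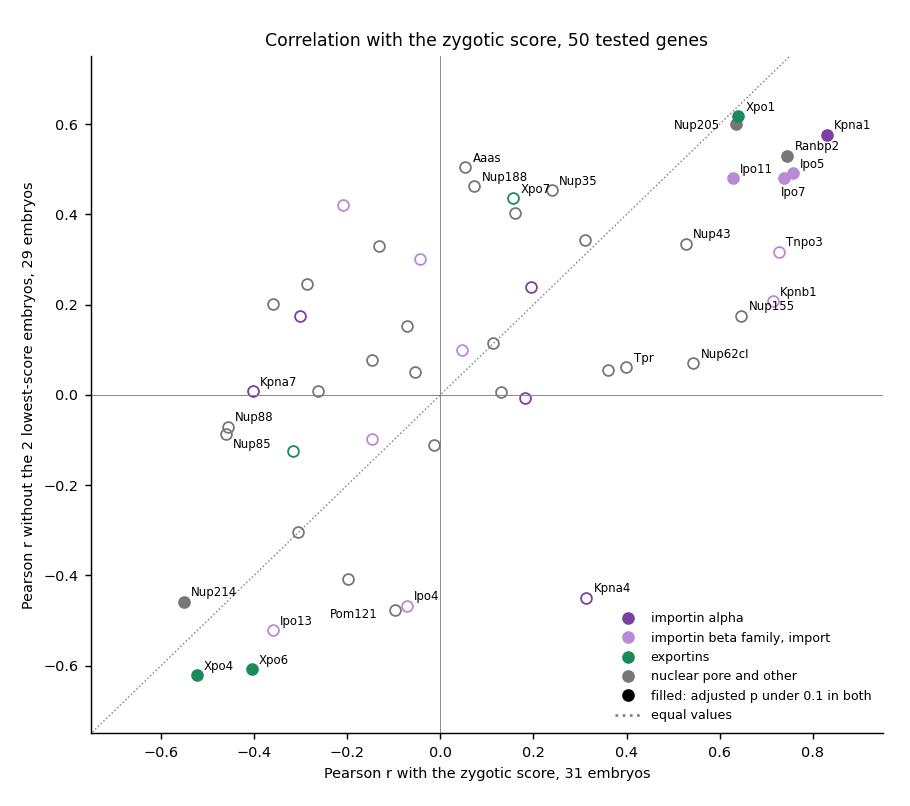
Pearson r with the zygotic score over 31 embryos against r over the 29 embryos without the 2 of lowest score, for the 50 tested genes, with filled points for genes past an adjusted p of 0.1 in both. The dotted line marks equal values, and Kpnb1 and Nup155 lie far below it, at 0.71 and 0.21 and at 0.65 and 0.18.

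The upstream sequences of 3 genes that correlated positively and 2 that correlated negatively in both sets of embryos are printed as examples, chosen with their motifs known, with and without a CCAAT motif. Capitals mark CCAAT, or ATTGG where it is on the other strand, and in Ranbp2, which has neither, TATAAA and CACGTG. The first RefSeq start of Ipo5 is used.
Ipo5 chr14:120910944-120911193 (+ strand): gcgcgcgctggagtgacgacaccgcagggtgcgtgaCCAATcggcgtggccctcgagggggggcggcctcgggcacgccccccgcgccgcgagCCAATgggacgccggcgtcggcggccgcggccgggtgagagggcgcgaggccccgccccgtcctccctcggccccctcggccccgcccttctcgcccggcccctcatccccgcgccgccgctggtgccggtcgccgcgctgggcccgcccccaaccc
Xpo1 chr11:23255791-23256040 (+ strand): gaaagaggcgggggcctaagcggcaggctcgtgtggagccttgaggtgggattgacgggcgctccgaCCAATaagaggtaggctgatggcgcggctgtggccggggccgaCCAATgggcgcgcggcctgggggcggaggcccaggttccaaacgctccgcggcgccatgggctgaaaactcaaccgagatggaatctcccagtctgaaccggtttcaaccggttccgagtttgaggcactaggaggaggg
Ranbp2 chr10:58446602-58446851 (+ strand): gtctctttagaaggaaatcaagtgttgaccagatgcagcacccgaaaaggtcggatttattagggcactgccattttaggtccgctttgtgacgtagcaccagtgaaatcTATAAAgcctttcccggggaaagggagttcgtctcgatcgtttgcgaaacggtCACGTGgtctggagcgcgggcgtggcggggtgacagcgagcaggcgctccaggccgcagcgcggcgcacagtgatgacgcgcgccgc
Nup214 chr2:31974200-31974449 (+ strand): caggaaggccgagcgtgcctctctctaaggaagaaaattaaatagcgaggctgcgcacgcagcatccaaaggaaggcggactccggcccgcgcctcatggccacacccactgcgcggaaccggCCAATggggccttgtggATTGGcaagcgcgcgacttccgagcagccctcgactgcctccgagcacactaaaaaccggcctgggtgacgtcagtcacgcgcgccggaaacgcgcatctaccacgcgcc
Xpo6 chr7:126200502-126200751 (- strand): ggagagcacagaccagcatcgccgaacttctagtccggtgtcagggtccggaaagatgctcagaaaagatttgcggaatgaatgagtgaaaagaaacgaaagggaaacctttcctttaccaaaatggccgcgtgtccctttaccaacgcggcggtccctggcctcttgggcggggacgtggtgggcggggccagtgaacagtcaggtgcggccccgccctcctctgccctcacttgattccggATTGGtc
Of the genes with an entry that were positive in both sets of embryos, CCAAT occurs in 3 of 7 windows, and not in those of Ipo7, Nup205 and Ranbp2 or at the other start of Ipo5. Of those negative in both, it occurs in 2 of 2 (Nup214 and Xpo6). Over the genes called in 31 embryos it occurs in 7 of 12 windows of positive and 4 of 4 of negative genes, against 33.8% of all windows. CCGGAAG, a core of ETS family sites, occurs in 18.0% of the windows of all 43 genes and in 6.91% of all windows, and CACGTG in 12.0% and 6.02%. TATAAA was found in 10.0% of their windows and 12.4% of all, and TAATCC, a core of sites for paired-like homeobox factors, in 4.00% and 6.25%. The windows of these genes hold more CpG than most (median 21 against 6), and motifs were searched on both strands. A match of letters is no evidence of a site.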

How the data were processed

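Single-embryo Smart-seq3 libraries of 31 embryos were analysed from the table of raw gene counts deposited by the authors, who separated 5′ reads with a molecular identifier from internal reads, aligned with STAR, removed duplicates (UMI-tools, Picard), merged both and counted with featureCounts. The submitters' processing notes name mm10. Annotation and strand setting are not given in the sources used here. The table is taken as it was before the authors' ComBat-seq correction, which could not be repeated because no label names a batch.

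Genes passing filterByExpr (minimum count 10, minimum total 15) were fitted with edgeR 4.0.16 (TMM, quasi-likelihood test, R 4.3.3) over all embryos, with Benjamini-Hochberg adjusted p under 0.1 over all tested genes. Intervals are 2 standard errors. Scores were correlated with log2 CPM (prior count 2), both on TMM-scaled library sizes, by permutation with 100000 resamples, adjusted over all tested genes. Levels given in CPM or CPM per kb are on the library total without TMM. Alternatives used limma 3.58.1 (voom), DESeq2 1.42.0 and sva 3.50.0. The scripts were tested on simulated data. Exon lengths and positions are from GENCODE vM21 (GRCm38), and all 53 symbols matched. No 2 libraries were identical.

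Genes and lists were chosen with earlier results of these data known. Named genes were those with the 6 smallest p, the importin alpha genes, Kpnb1, Xpo1, the 6 highest per kb, and the 3 most positive and 3 most negative with the zygotic score. Other genes are named for their level, spread or counts.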

Additional observations from a re-analysis of the deposited data

How the results depend on the processing

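The count of pore and carrier genes past the threshold was 0 in the fit reported and in all fits with 1 embryo left out (0 to 0), 9 with limma voom with quality weights and 1 with surrogate variables, and voom called 2 genes of the neighbouring lists (Ddx19b and Tmpo). Estimates near 0 changed sign with the fit, in log2 fold change. Voom gave 0.52 for Kpna1 and -0.60 for Nup85. Library size as a term gave -0.0575 for Kpna2, 0.12 for Nup214 and -0.22 for Nup85. Surrogate variables gave -0.0516 for Kpna2, 0.0046 for Kpna3, -0.0678 for Kpnb1, 0.0558 for Nup214 and -0.0665 for Nup85. Estimated clusters gave 0.0035 for Kpna1 and -0.16 for Nup85. Leaving out 1 embryo at a time gave -0.18 to 0.23 for Kpna1, -0.0545 to 0.12 for Kpna2, -0.12 to 0.0154 for Kpna3, -0.11 to 0.0331 for Nup214 and -0.41 to 0.24 for Nup85, and moved the difference in the share of counts on members of the set between 0.0365 and 0.0693 percentage points, and in the share of counts on importin alpha between 0.0063 and 0.0111. The cause was not tested.

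Replicate numbers are shared by the groups, and no label says whether they pair embryos. Over 15 pairs the correlation of deviations was -0.37 to 0.49 (median 0.11), over 0.1 in 8 pairs. Of the SER embryos, 2 correlated best with their own number. A check of single pairs cannot tell whether runs of numbers share a batch. With the replicate block 0 genes were called, with or without library size. The block gave 0.0745 for Kpna1, 0.0533 for Nup214 and -0.38 for Nup85, and with library size -0.087 for Kpna2, 0.0565 for Kpna3, -0.15 for Tpr, 0.66 for Nup214, -0.14 for Ipo5, -0.10 for Ranbp2 and -0.93 for Nup85.

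Chosen after seeing the data, leaving out both embryos of lowest zygotic score gave -0.0206 for Kpna2 and -0.24 for Nup85, the zygotic score as a term gave 0.0868 for Nup214, and the longest coding transcript as length put Nup214 at 108 CPM per kb. Correlations with the zygotic score changed sign by Spearman for Kpna3 (0.0129) and Kpna4 (-0.28), and without the 2 embryos for Kpna3 (0.17), Kpna4 (-0.45), Kpna6 (-0.0076) and Kpna7 (0.0082).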

Other observations

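Against the score of oocyte transcripts, positive over 31 embryos by Pearson and by Spearman, and by Pearson without the 2 embryos farthest from the median of this score, were 8 genes, Aaas, Ipo8, Kpna3, Kpna7, Nup37, Nupl1, Sec13 and Xpo7. Negative in all of these were 9, Ipo4, Kpna6, Kpnb1, Nup133, Nup155, Nup210l, Pom121, Tnpo3 and Tpr. Of all 8557 genes, 13% were positive and 16.9% negative in all of these. These genes were named after their values were seen.

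Ipo8, which can carry Argonaute proteins, had the highest r, 0.85, with a rho of 0.85 and an r of 0.87 without the 2 embryos. Sec13, which also coats COPII vesicles, followed with an r of 0.81, a rho of 0.84 and 0.79 without them. On the negative side Ipo4, a carrier of histones, had an r of -0.73, a rho of -0.73 and -0.73 without the 2 embryos, and Kpna6 an r of -0.69, a rho of -0.70 and -0.69. Importin alpha genes thus lay on both sides, Kpna3 at 0.72 and Kpna7 at 0.67 against Kpna6 at -0.69. The oocyte score was 12.2 ± 0.759 (SD, n = 16) in control- and 11.7 ± 0.895 (SD, n = 15) in SER-generated embryos (2-sided permutation test, p = 0.114), and its part in the estimate for Kpna6 was not tested.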
